A study of Mus musculus with 6 samples.

Results

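The genes described here encode the retinoblastoma pocket proteins and the MuvB complex with its activating partners. They are Rb1, Rbl1 and Rbl2 (the pocket proteins pRB, p107 and p130), Lin9, Lin37, Lin52, Lin54 and Rbbp4 (the MuvB core), Mybl2 (B-MYB) and Foxm1. They were listed by name for their roles, with earlier results of these data known, and all 10 had a row among the 24043 gene rows of the table. Their transcripts were profiled by RNA-seq in ES cells, the pluripotent stem cells of the early mouse embryo. There were 3 libraries of wild-type cells and 3 of cells named Q-KO, described in the labels as lacking all G1 cyclins. Both groups had LIF (leukaemia inhibitory factor), CHIR99021 (which inhibits GSK3) and PD184352 (which inhibits MEK) in the medium. The labels do not say how many clones or cultures stand behind the libraries, so p-values here reflect sample-to-sample spread alone, possibly technical in origin.

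Pocket proteins hold E2F transcription factors in check, and cyclin D and cyclin E kinases release E2F by phosphorylating them. With p107 or p130, E2F4 and a DP protein, the MuvB core forms the DREAM complex, which represses cell cycle genes in resting cells. In cycling cells the same core binds B-MYB and then FOXM1 and activates genes of G2 and mitosis. MuvB reaches DNA through LIN54, which recognises the cell cycle homology region (CHR), whereas E2F and DP proteins recognise E2F elements. In mouse ES cells G1 is short and pRB is phosphorylated through most of the cycle.

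Promoter sequences of 4 genes are shown with letters that match a CHR or an E2F element marked. Each runs 5′ to 3′ on the gene's strand from 250 bases before to 50 bases after the annotated start, and comes from RefSeq on build GRCm38.p6, not the build mm9 of the expression table. Capitals mark matches on either strand to a CHR (TTTGAA or TTCGAA) or to an E2F element (TTTCCCGC, TTTGGCGC, TTTCGCGC or TTTGCCGC). Rbl1 (chr2:157204485-157204784, minus strand) and Lin52 (chr12:84451258-84451557, plus strand) are the members with an E2F match. Lin37 (chr7:30559597-30559896, minus strand) is the member with the largest positive change, and Top2a (chr11:99024140-99024439, minus strand), the DNA topoisomerase of mitosis, is a late target.
Rbl1: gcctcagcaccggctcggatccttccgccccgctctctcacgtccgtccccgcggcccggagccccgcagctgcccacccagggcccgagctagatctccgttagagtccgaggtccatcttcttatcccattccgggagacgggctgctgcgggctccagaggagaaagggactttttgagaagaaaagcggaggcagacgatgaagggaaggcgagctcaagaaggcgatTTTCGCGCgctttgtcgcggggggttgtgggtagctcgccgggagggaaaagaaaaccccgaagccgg
Lin52: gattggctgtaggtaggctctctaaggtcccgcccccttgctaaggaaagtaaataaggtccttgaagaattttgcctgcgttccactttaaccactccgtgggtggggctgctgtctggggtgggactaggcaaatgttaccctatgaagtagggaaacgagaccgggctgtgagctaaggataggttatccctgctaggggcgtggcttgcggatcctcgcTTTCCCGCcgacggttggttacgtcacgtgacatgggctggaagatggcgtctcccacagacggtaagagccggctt
Lin37: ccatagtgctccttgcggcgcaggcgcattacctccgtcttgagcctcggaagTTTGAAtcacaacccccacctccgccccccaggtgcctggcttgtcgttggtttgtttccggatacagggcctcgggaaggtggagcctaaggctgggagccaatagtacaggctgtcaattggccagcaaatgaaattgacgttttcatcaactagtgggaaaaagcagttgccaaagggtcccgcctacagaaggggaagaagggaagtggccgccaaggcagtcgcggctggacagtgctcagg
Top2a: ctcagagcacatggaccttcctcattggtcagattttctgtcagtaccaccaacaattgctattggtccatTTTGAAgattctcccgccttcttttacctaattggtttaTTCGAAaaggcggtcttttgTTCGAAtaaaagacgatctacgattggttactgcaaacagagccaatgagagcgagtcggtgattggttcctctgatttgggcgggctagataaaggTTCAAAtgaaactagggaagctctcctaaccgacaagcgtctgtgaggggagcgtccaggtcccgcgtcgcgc

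In these windows the E2F match began 18 bases upstream of the start in Rbl1 and 27 bases upstream in Lin52. The CHR match of Lin37 began 197 bases upstream, and Top2a held 4 CHR matches. Ccnb1, another late target with lower values in Q-KO libraries, held no match of either kind in its window, which is not shown. Of the 10 members 7 matched the promoter table, with 8 promoters, and Rb1, Lin9 and Foxm1 did not. A CHR match was found for Lin37, Lin54 and Rbl2, and no match of either kind for Mybl2 or Rbbp4. Only the exact letters listed above were counted, so a variant of either element would be missed. Over all 32851 promoters of this length 19.2% held a CHR match and 2.26% an E2F match, and over the promoters of tested genes these shares were 13.6% and 4.16%. No CHR match overlapped an E2F match in the windows shown. A match describes letters, not a bound site.

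Several facts of the libraries bear on the results. FPKM scales the fragments of a gene to its length and to the library's total, and its sum per library ranged from 525134 to 641715. No source used here gives the number of fragments. Judged from low values, the depths of 5 libraries relative to wild-type replicate 1 were 1.099 to 1.215. The targeted genes followed the genotype label for Ccnd1, Ccnd3 and Ccne2, which fell (limma adjusted p = 0.0124, 0.0101 and 0.0182). They did not for Ccne1, which was at 55.9, 53.9 and 37.5 FPKM in wild-type and at 65.3, 73.5 and 87.3 FPKM in the libraries labelled Q-KO. Ccnd2 was at or below 0.548 FPKM in each library. Q-KO below therefore means the libraries so labelled, in the direction of each change too. The 5 Y-linked genes examined were listed at 0 in wild-type replicates 1 and 2 and summed to 98.6 FPKM in wild-type replicate 3 and to 43.3 to 70.5 FPKM in the Q-KO libraries. In wild-type replicate 3 the median gene of chromosome 8 was 0.27, and that of chromosome 11 0.26, above the mean of the other libraries on the log2 scale. All 6 ES cell identity genes were present in every library, with Pou5f1, Sox2 and Nanog between 159 and 797 FPKM, and none was called. Zfp42 stood at 363 FPKM in wild-type replicate 3 and 177 FPKM in Q-KO replicate 1, and between 74.7 and 78.9 FPKM in the other libraries. None of the 10 markers of differentiated derivatives reached the filter, and the list summed to 2.25 to 2.92 FPKM in wild-type and 2.96 to 3.67 FPKM in Q-KO libraries. Among them Cdx2 (0.0178 to 0.0489 and 0.393 to 0.805 FPKM), Pax6 (0.0272 to 0.0585 and 0.176 to 0.247 FPKM) and Gata3 (0.00764 to 0.204 and 0.242 to 0.321 FPKM) were higher in each Q-KO library than in any wild-type library. The same held for 18.2% of all genes tested, which these low markers were not. The other markers of this list had overlapping groups. Their Q-KO means were lower for Gata4, Foxa2, Mesp1 and Sox1 and higher for Gata6, Sox17 and T. Of the 7 fibroblast markers only Thy1 reached the filter, with lower values in each Q-KO library than in any wild-type library. The fibroblast list summed to 1.61 to 2.99 FPKM in wild-type and to 0.951 to 6.48 FPKM in Q-KO libraries, with Dcn at 0 in each wild-type library. The highest sum was that of Q-KO replicate 1, where Col1a1, Col3a1 and Col1a2 were at 1.86, 1.35 and 1.16 FPKM. The part of these markers in the results below was not tested.

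**Figure D1:**
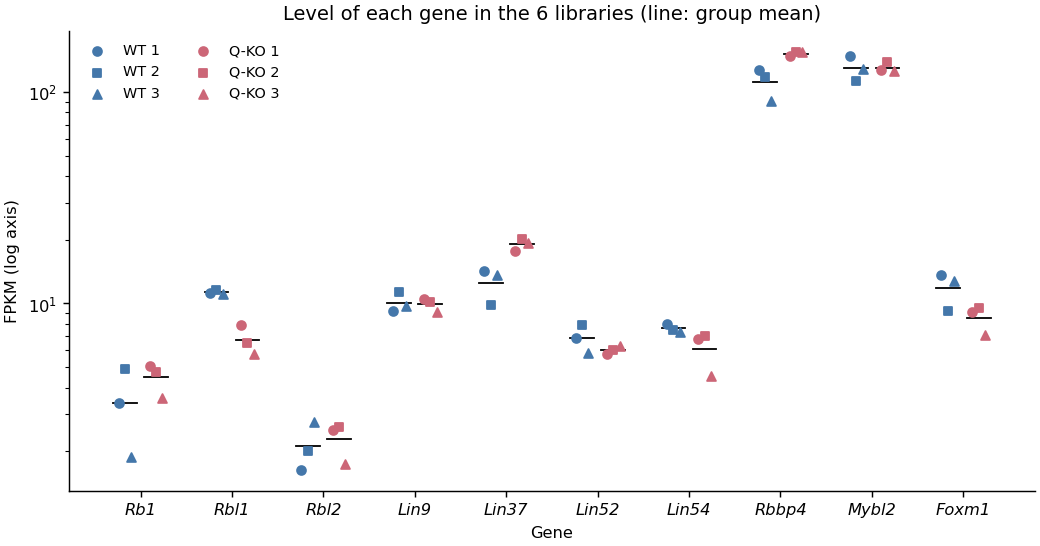
FPKM of the 10 genes (log axis) in the 3 wild-type (blue) and 3 Q-KO (red) libraries, with the symbol shape giving the replicate number and the line the group mean. Rbbp4 and Mybl2 lie between 90.9 and 154 FPKM and every other gene at or below 20.1 FPKM, and Rbl1, Lin54, Lin37 and Rbbp4 have groups that do not overlap.

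As FPKM is a level per length, levels can be set side by side between genes. Rbbp4 and Mybl2 were the most abundant members, at 132 and 130 FPKM on average over the 6 libraries, and their ranges overlapped. The next gene, Lin37, averaged 15.8 FPKM and had no library above 20.1 FPKM. Foxm1 (10.2 FPKM), Lin9 (10.005 FPKM), Rbl1 (9.004 FPKM), Lin54 (6.87 FPKM) and Lin52 (6.46 FPKM) followed, each overlapping the next. Rb1 (3.93 FPKM) and Rbl2 (2.21 FPKM) were the lowest, below every library of Lin52, and overlapped each other. Per length, the transcript of B-MYB was 10.1 to 17.7 times as abundant as that of FOXM1 within a library, and p107 had the most abundant transcript of the pocket proteins.

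The comparison of Q-KO with wild-type libraries sets these transcripts side by side in the groups so labelled. Of the 10 members, 1 fell and 0 rose in limma's test on log2(FPKM + 1), at a Benjamini-Hochberg adjusted p under 0.05 over the 11573 genes that averaged 1 FPKM or more. All 10 members passed that filter. Over all genes tested 4.06% were called, 3.04% higher and 1.02% lower, and 1 gene alone sets the members' share of 10%. A further 2 members had an unadjusted p under 0.05, as did 2493 of all genes tested. The groups did not overlap for 4 members, 2 higher and 2 lower in Q-KO libraries, against 27.7% of all genes tested (18.2% higher and 9.44% lower). The median log2 change of the members was -0.004, against 0.07 for all genes tested.

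Rbl1, which encodes p107, was the member that fell. Wild-type libraries, here and below in the order of replicates 1, 2 and 3, had 11.1, 11.6 and 11.1 FPKM, and Q-KO libraries, in the same order, 7.87, 6.52 and 5.80 FPKM. Every Q-KO library lay below every wild-type library, and the wild-type libraries were close to one another. The means were 11.3 ± 0.274 and 6.73 ± 1.06 FPKM (mean ± SD, n = 3 per group, as below), a ratio of 0.597. On the log2 scale it changed by -0.68 (SE 0.15, 95% interval -1.02 to -0.33, limma adjusted p = 0.049). The adjusted p lay just under the threshold, and leaving out any 1 library lost the call (adjusted p 0.0738 to 0.229) while the log2 change stayed between -0.78 and -0.59. Within the libraries that hold Y-linked transcripts, which sets the Q-KO libraries against wild-type replicate 3 alone and takes part of the spread from wild-type replicates 1 and 2, the log2 change was -0.65 (limma adjusted p = 0.123).

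Rb1, which encodes pRB, was at 3.38, 4.90 and 1.88 FPKM in wild-type and 5.09, 4.75 and 3.58 FPKM in Q-KO libraries. The groups overlapped, and wild-type replicate 3 was the lowest of all 6 libraries. Its log2 change was 0.37 (SE 0.27, 95% interval -0.25 to 0.99, limma adjusted p = 0.467). Its size followed wild-type replicate 3, being 0.10 without that library and 0.92 against that library alone (limma adjusted p = 0.852 and 0.0842).

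Rbl2, which encodes p130, the pocket protein typical of resting cells, was at 1.64, 2.004 and 2.75 FPKM in wild-type and 2.51, 2.60 and 1.75 FPKM in Q-KO libraries. The groups overlapped throughout. The change was 0.075 on the log2 scale (SE 0.21, 95% interval -0.40 to 0.55, limma adjusted p = 0.867). Rbl2 lies on chromosome 8, whose genes were high in wild-type replicate 3, the highest wild-type library for Rbl2. With each library's chromosome median removed the log2 change was 0.17 (limma adjusted p = 0.611), and against wild-type replicate 3 alone it was -0.20. In GENCODE M21 (build GRCm38), exons of other genes cover 14.9% of the exon bases of Rb1 and 20.97% of those of Rbl2. Without a stated strand setting, reads of these neighbours cannot be told apart from those of the members, so both values are uncertain.

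**Figure D2:**
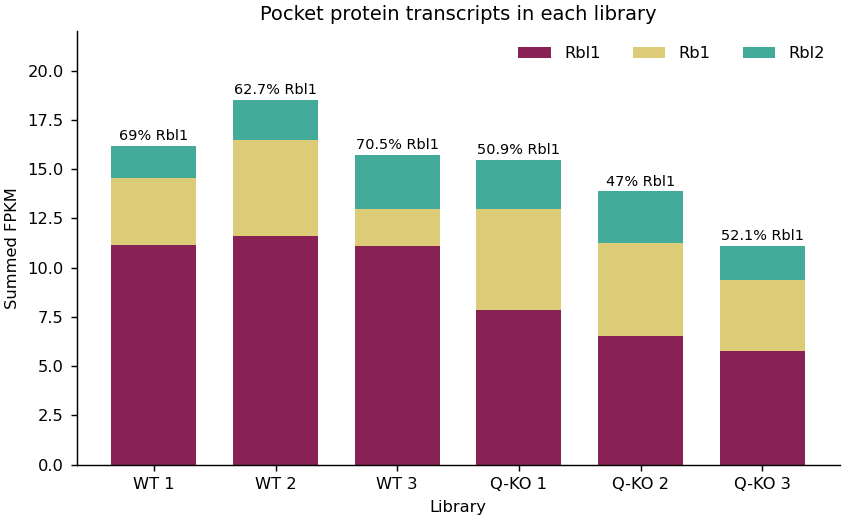
FPKM of Rbl1, Rb1 and Rbl2 stacked for each library, with the share of Rbl1 in the sum printed above each bar. The share of Rbl1 lies between 62.7% and 70.5% in the wild-type bars and between 47.0% and 52.1% in the Q-KO bars.

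Together the 3 pocket protein genes summed to 16.2, 18.5 and 15.7 FPKM in wild-type and to 15.5, 13.9 and 11.1 FPKM in Q-KO libraries. The groups did not overlap, although Q-KO replicate 1 came close to wild-type replicate 3. The share of Rbl1 in that sum was 69.0%, 62.7% and 70.5% in wild-type and 50.9%, 47.0% and 52.1% in Q-KO libraries. The share of Rb1 was 20.9%, 26.5% and 12.0% in wild-type and 32.9%, 34.3% and 32.2% in Q-KO libraries, so that the Q-KO libraries resembled one another more than the wild-type libraries did. The ratio of Rbl1 to Rb1 ranged from 2.37 to 5.90 in wild-type and from 1.37 to 1.62 in Q-KO libraries. These sums and shares rest on the values of the genes given above and add no independent evidence.

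Among the MuvB core genes, Lin37 and Rbbp4 were higher and Lin54 lower in every Q-KO library than in any wild-type library, and none passed the test. LIN37 is the subunit that DREAM needs to repress its targets. Lin37 was at 14.3, 9.80 and 13.6 FPKM in wild-type and 17.7, 20.1 and 19.4 FPKM in Q-KO libraries. Wild-type replicate 2 was the lowest library, and the closest libraries of the groups were wild-type replicate 1 and Q-KO replicate 1. The log2 change of Lin37 was 0.58 (SE 0.17, 95% interval 0.20 to 0.96, limma adjusted p = 0.0977), and it lay between 0.42 and 0.67 when any 1 library was left out.

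RBBP4 is a histone-binding WD40 protein that several chromatin complexes share with MuvB. Rbbp4 was at 127, 117 and 90.9 FPKM in wild-type and 147, 154 and 154 FPKM in Q-KO libraries. The Q-KO libraries were close together, and wild-type replicate 3 was the lowest. In log2 terms Rbbp4 changed by 0.45 (SE 0.15, 95% interval 0.11 to 0.80, limma adjusted p = 0.138). Against wild-type replicate 3 alone it was 0.73, the one alternative that passed the threshold (limma adjusted p = 0.0445). In that fit the wild-type arm is 1 library, the lowest of all 6 for Rbbp4, which is assumed to vary like the others. Without that library the change was 0.31 (limma adjusted p = 0.255). Its close paralog Rbbp7 was at 107, 103 and 128 FPKM in wild-type and 139, 104 and 108 FPKM in Q-KO libraries, with overlapping groups (change of 0.05 in log2, limma adjusted p = 0.896). The ratio of Rbbp4 to Rbbp7 was 1.19, 1.14 and 0.711 in wild-type and 1.06, 1.49 and 1.43 in Q-KO libraries, with overlapping groups. Exons of other genes cover 18.0% of the exon bases of Rbbp4, so its value is uncertain too.

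LIN54 is the subunit that contacts the CHR. Lin54 was at 7.999, 7.53 and 7.33 FPKM in wild-type and 6.77, 7.03 and 4.54 FPKM in Q-KO libraries. The groups did not overlap, but Q-KO replicates 1 and 2 lay just below the wild-type libraries and only Q-KO replicate 3 was far from them. Lin54 had a log2 change of -0.30 (SE 0.18, 95% interval -0.71 to 0.12, limma adjusted p = 0.383), and without Q-KO replicate 3 it was -0.13.

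LIN9 is the scaffold that joins MuvB to B-MYB, and LIN52 is the subunit that docks on p107 and p130 once the kinase DYRK1A has phosphorylated it. Lin9 was at 9.20, 11.3 and 9.74 FPKM in wild-type and 10.5, 10.2 and 9.13 FPKM in Q-KO libraries. Lin52 was at 6.89, 7.93 and 5.81 FPKM in wild-type and 5.79, 6.05 and 6.30 FPKM in Q-KO libraries. Both genes had overlapping groups. Their log2 changes were -0.018 for Lin9 (SE 0.14, 95% interval -0.35 to 0.31, limma adjusted p = 0.958) and -0.15 for Lin52 (SE 0.16, 95% interval -0.51 to 0.21, limma adjusted p = 0.614). That of Lin52 was -0.057 without wild-type replicate 2 and -0.25 without wild-type replicate 3. The ratio of Lin37 to Lin9 was 1.55, 0.866 and 1.396 in wild-type and 1.69, 1.97 and 2.12 in Q-KO libraries. Lin37 made up 26.8% to 37.3% of the summed FPKM of Lin9, Lin37, Lin52 and Lin54 in wild-type and 43.5% to 49.3% in Q-KO libraries. This ratio and this share rest on the values given for the genes and add no independent evidence.

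**Figure D3:**
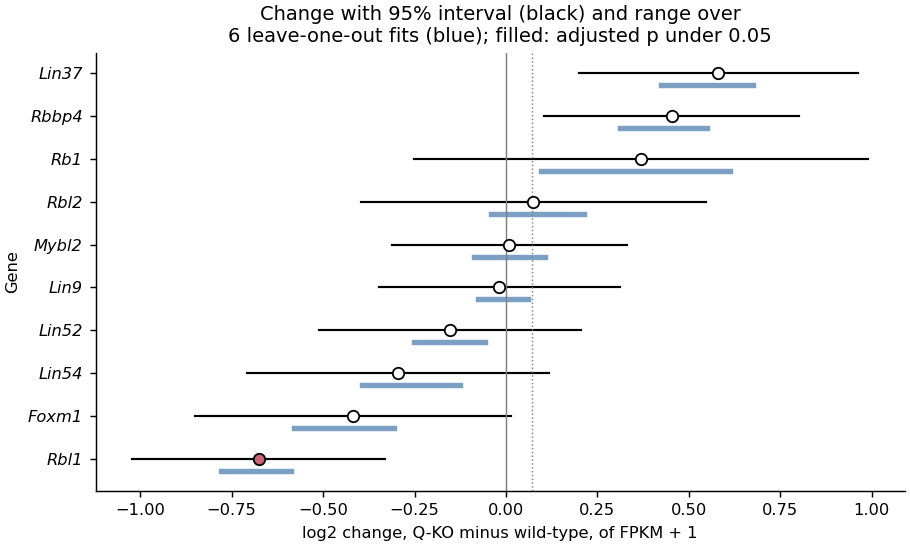
Log2 change of FPKM + 1 (Q-KO minus wild-type) of the 10 genes, with the 95% interval of limma as a black line and the range over the 6 fits that each leave out 1 library as a blue bar; the dotted line is the median of all genes tested. Rbl1 is the 1 filled point, at -0.68, and the intervals of Lin37, Rbbp4 and Rbl1 do not include 0.

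The activating partners of MuvB were not called. B-MYB is the partner that MuvB binds in S phase and is abundant in ES cells. Mybl2 was at 148, 113 and 129 FPKM in wild-type and 127, 138 and 126 FPKM in Q-KO libraries. The Q-KO values fell inside the wild-type range. Mybl2 had a log2 change of 0.0091 (SE 0.14, 95% interval -0.31 to 0.33, limma adjusted p = 0.98).

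FOXM1 is a forkhead factor that MuvB and B-MYB bring to the promoters of G2 and mitotic genes. Foxm1 was at 13.7, 9.17 and 12.7 FPKM in wild-type and 9.09, 9.48 and 7.13 FPKM in Q-KO libraries. Wild-type replicate 2 lay among the Q-KO libraries, so the groups overlapped. Foxm1 had a log2 change of -0.42 (SE 0.19, 95% interval -0.85 to 0.01, limma adjusted p = 0.245), and -0.53 against wild-type replicate 3 alone. The ratio of Mybl2 to Foxm1 was 10.8, 12.3 and 10.1 in wild-type and 14.0, 14.5 and 17.7 in Q-KO libraries. In this ratio the groups did not overlap, but it rests on the values above and adds no independent evidence. Among single genes 27.7% of all tested had groups without overlap, and no such share was computed for ratios.

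**Figure D4:**
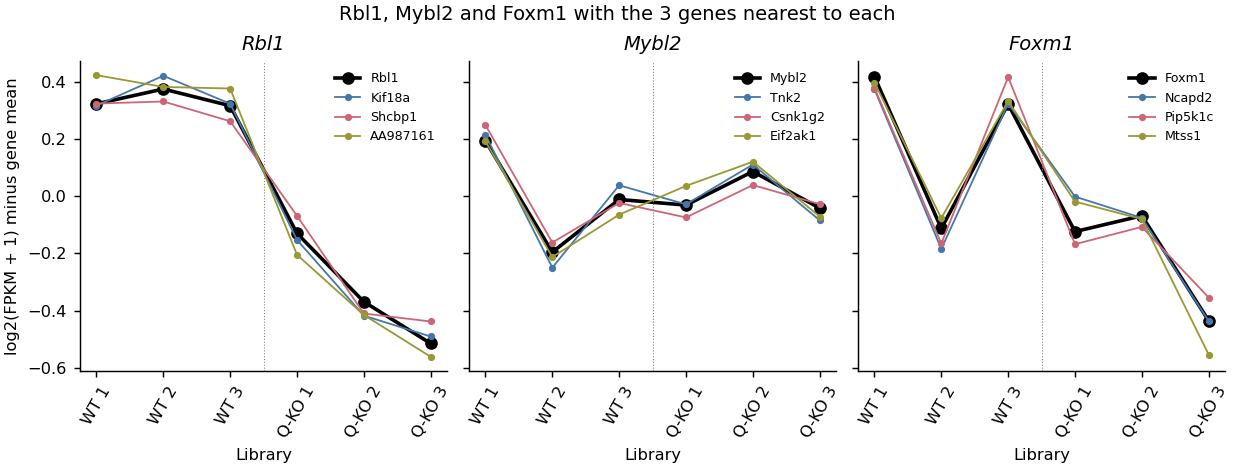
log2(FPKM + 1) minus the gene's mean in the 6 libraries for Rbl1, Mybl2 and Foxm1 (black) and the 3 genes nearest to each; lines only join the values of a gene, and replicates have no order. Rbl1 and its nearest genes are above their means in the wild-type and below them in the Q-KO libraries, while wild-type replicate 2 is the lowest library for Mybl2 and lies with the Q-KO libraries for Foxm1.

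The genes whose pattern was most like that of Rbl1, Mybl2 and Foxm1 were sought among 8123 genes that averaged 5 FPKM or more, by the root-mean-square difference of centred log2 values over the 6 libraries. For Rbl1 the nearest was Kif18a, a mitotic kinesin, at 0.0309, with 21.8, 23.5 and 21.9 FPKM in wild-type and 15.4, 12.7 and 12.0 FPKM in Q-KO libraries. Shcbp1 (0.0519) and AA987161 (0.0628) followed. For Foxm1 the nearest was Ncapd2, a condensin subunit (0.0607), followed by Pip5k1c (0.0622) and Mtss1 (0.0671). For Mybl2 they were Tnk2 (0.0371), Csnk1g2 (0.0379) and Eif2ak1 (0.0402). With 6 libraries and so many candidates, some genes come this close to any pattern.

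Of the genes of 20 proteins that act with or on the members 1 was called, near the 4.06% of all genes tested. Of 7 partners and paralogs, 0 were called in either direction, and the median log2 change was -0.19. The most abundant was Rbbp7, given above. E2f4 encodes the E2F of DREAM and is named with its values known. Wild-type libraries had 57.3, 40.8 and 68.0 FPKM and Q-KO libraries 48.5, 35.3 and 31.4 FPKM, and the groups overlapped (log2 change -0.51, limma adjusted p = 0.241). Like Rbl2, E2f4 lies on chromosome 8. Also named after its values were seen, the B-MYB paralog gene Mybl1 had lower values in each Q-KO library than in any wild-type library (log2 change -0.65, limma adjusted p = 0.146). Its paralog Myb was at 1.83, 0.656 and 3.56 FPKM in wild-type and 0.623, 0.556 and 0.184 FPKM in Q-KO libraries. Myb passed the filter only through the wild-type group, so no test is given for it by itself. The counts and the median of its list nevertheless include Myb, as does the figure of changes by list. Of 13 regulators, 1 fell and 0 rose. It was Cdkn1b, the kinase inhibitor p27, at 18.3, 22.5 and 20.4 FPKM in wild-type and 8.90, 11.8 and 12.4 FPKM in Q-KO libraries. Its log2 change was -0.84 (SE 0.16, limma adjusted p = 0.0323). Without any 1 of wild-type replicates 1 and 2 or Q-KO replicates 1 to 3, none of the 20 partners, paralogs and regulators was called.

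**Figure D5:**
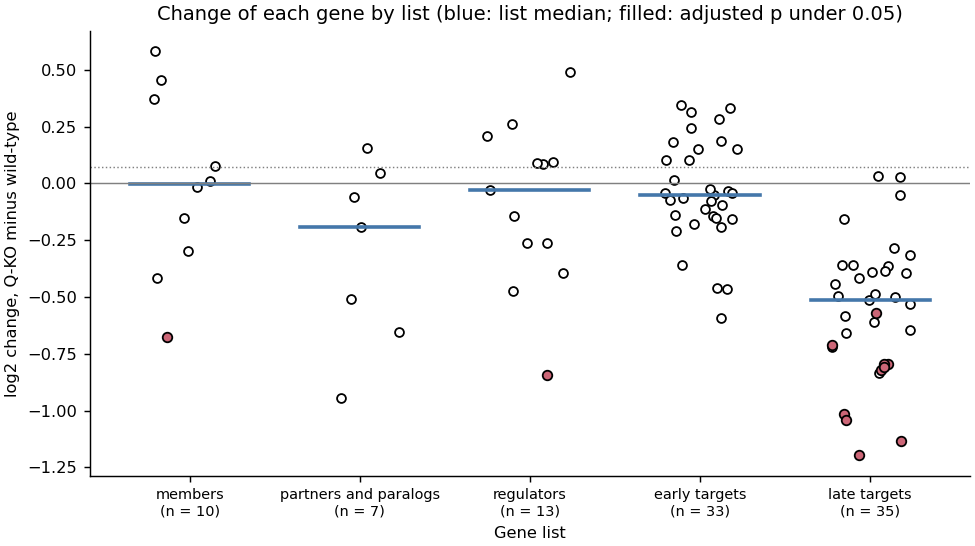
Log2 change (Q-KO minus wild-type) of each tested gene in the members, their partners and paralogs, their regulators, and early and late target genes; blue lines are list medians, filled points are called and the dotted line is the median of all genes tested. The late targets have a median of -0.51 and 10 filled points, and the early targets a median of -0.05 and none.

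The target genes of these complexes were counted by phase, in lists chosen with earlier results of these data known. Late targets, the G2 and mitotic genes that MuvB activates with B-MYB and FOXM1, held 10 falls and 0 rises among 35 tested genes (28.6%, against 1.02% lower among all genes tested). Of the 35, 33 had a log2 change below 0, against 40.7% of all genes tested, and 27 had lower values in each Q-KO library than in any wild-type library, against 9.44%. The median was -0.51. The list summed to 2199 to 2558 FPKM in wild-type and to 1651 to 1675 FPKM in Q-KO libraries. The largest falls were those of Cenpf, Hmmr, Mki67 and Top2a. Cenpf, a kinetochore protein, was at 17.4, 16.4 and 13.4 FPKM in wild-type and 8.27, 5.70 and 5.18 FPKM in Q-KO libraries, with a log2 change of -1.20 (SE 0.19, limma adjusted p = 0.0173). Top2a, whose promoter is shown above, was at 197, 231 and 204 FPKM in wild-type and 110, 97.1 and 104 FPKM in Q-KO libraries, with a log2 change of -1.01 (SE 0.13, limma adjusted p = 0.0101). Top2a and Hmmr lie on chromosome 11, whose genes were high in wild-type replicate 3, and with chromosome medians removed 15 of the 35 late targets fell. In whole cultures, fewer cells in G2 and mitosis and less RNA per cell cannot be told apart. The count was 2 without wild-type replicate 1, 4, 0 and 3 without Q-KO replicates 1, 2 and 3, and 4 against wild-type replicate 3 alone. The list's median in these fits was -0.48, -0.49, -0.55, -0.54 and -0.39.

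Early targets, the replication genes that E2F activates and pocket proteins repress, held 0 calls among 33 tested genes in limma's test, against 4.06% of all genes tested. Of the 33, 6 had an unadjusted p under 0.05, against 21.5% of all genes. There were 12 changes above and 21 below 0, with a median of -0.05, which was 0.06 against wild-type replicate 3 alone and 0.033 without wild-type replicate 1. The list summed to 2642 to 3176 FPKM in wild-type and to 2749 to 2933 FPKM in Q-KO libraries, so the groups overlapped. Its most abundant member, Pcna, the DNA polymerase clamp, had a log2 change of -0.10 (limma adjusted p = 0.745).

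A CHR match was present in the promoters of 22 of the 31 late targets that matched the promoter table and of 6 of 26 early targets. An E2F match was present in 0 late and 10 early targets. Within the late targets the median log2 change was -0.52 with a CHR match and -0.49 without one, and 6 of 22 and 3 of 9 genes fell. Over all genes tested with a promoter, 29 of 1387 with a CHR match fell (2.09%) and 51 of 7302 without one (0.698%). Within the early targets it was -0.07 with an E2F match and -0.01 without one. These medians stand beside each other without a test. Among the members with an E2F match, Rbl1 fell and Lin52 had overlapping groups.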

How the data were processed

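Expression values were FPKM as deposited by the authors in a single table, a row per gene symbol and a column per library. CASAVA, bcl2fastq 2.16, STAR 2.5, Cufflinks and build mm9 are named, with neither role nor order, per the submitters' processing notes. The annotation and strand setting are not stated, and no source used here gives the read depth, so counting intervals were not computed. After 1 stray header row was dropped, 24043 gene rows remained, of which 4462 were 0 in all libraries. A listed 0 can be a failed estimate.

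Groups came from the genotype labels. The quantity tested was log2(FPKM + 1), for 11573 genes averaging 1 FPKM or more. Groups were compared two-sided with limma 3.58.1 under R 4.3.3, using lmFit and then eBayes with its intensity trend, with adjustment over all genes tested and a threshold of 0.05. Log2 changes are given as Q-KO minus wild-type, and they understate the change of low genes. The procedure was run on simulated data with independent normal spread taken from limma's own fit. That simulation held no Y-linked, chromosome or scaling differences, so it cannot show how the test behaves under those of these libraries. Members, lists and alternatives were chosen with earlier results of these data known. All members are named, with up to 4 called genes per list and direction, the most abundant member of a list without a call, and the 3 nearest genes of Rbl1, Mybl2 and Foxm1. Other genes were named after their values were seen. Alternatives varied the pseudocount, filter, scaling, trend, block and libraries, added a term for Y-linked transcripts (a summed level above 1 FPKM), or removed chromosome medians or trends with transcript length or GC content.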

Additional observations from a re-analysis of the deposited data

How the results depend on the processing

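Of the 10 members, 0 were called without a filter, with a filter at a mean of 5 FPKM (which left 8 members), no intensity trend, the replicate number as a block, or any 1 library left out. With the other alternatives 1 was called. This was Rbl1, except with the term for Y-linked transcripts, where Rbbp4 was called in its place. The adjusted p of Rbl1 ranged from 0.0293 to 0.229. All genes called numbered 266 with a mean of at least 5 FPKM, 894 with the term for Y-linked transcripts, and 28 to 566 in the leave-one-out fits. Late targets called numbered 17 with median-of-ratios scaling, 4 with the Y-linked term, 20 and 16 after a length or GC trend was removed, both chosen after the data were seen, and 0 to 14 in the leave-one-out fits. Early targets called numbered 1, lower, with median-of-ratios scaling, quantile normalization, chromosome medians removed or a GC trend removed, 1, higher, with the Y-linked term, 2, lower, with a length trend removed, and 0 in the leave-one-out fits. Partners and regulators called numbered 0 with no filter and 0 to 2 in the leave-one-out fits. The cause was not tested for any of these.

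Changes near 0 turned sign. The log2 change of Mybl2 was -0.078 with median-of-ratios scaling, -0.034 with quantile normalization, and -0.023, -0.066 and -0.12 with chromosome medians, a length trend or a GC trend removed. It ranged from -0.0865 to 0.11 in the leave-one-out fits, below 0 without wild-type replicate 2 (-0.0865) and without Q-KO replicate 2 (-0.032). That of Rbl2 was -0.097 with quantile normalization and -0.20 with the Y-linked term, and ranged from -0.041 (wild-type replicate 1 left out) to 0.21. That of Lin9 was 0.0235 with the Y-linked term and 0.027 with a GC trend removed, and ranged from -0.075 to 0.061, above 0 without wild-type replicate 2 (0.061) and Q-KO replicate 3 (0.036). That of Lin52 was 0.049 with the Y-linked term. Those of Rb1, Rbl1, Lin37, Lin54, Rbbp4 and Foxm1 kept their sign in all alternatives run. Rises were 74.9% of all calls, against 54.0% after quantile normalization, 61.8% after median-of-ratios scaling, and 59.6% and 61.1% after a length or GC trend was removed. The median change of all genes was 0.07 as deposited and -0.03 after quantile normalization.

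Deviations from the group means of same-numbered libraries correlated at -0.028 to 0.022 across genes, and 0 of 6 libraries correlated best with their own number, so the numbers were not taken to pair the samples. With the replicate block 333 genes in all, 8 late targets, 0 early targets and 1 regulator were called, and the adjusted p of Rbl1 was 0.0895.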
